A study of Rattus norvegicus with 8 samples.

Results

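The genes described are 5 that mark the less abundant endocrine cells of the pancreatic islet: Sst, Hhex and Rbp4 for the delta cell and Ppy and Pyy for the PP cell. They were chosen by symbol, and all 5 were found among the 10692 rows of the deposited table. Sst encodes somatostatin, the delta-cell hormone that holds back the release of insulin and glucagon from neighbouring cells. Hhex encodes a homeodomain transcription factor that delta cells of the mouse need to keep Sst on. Rbp4 encodes the secreted carrier of retinol and is a marker of delta cells in mouse and human islets. Ppy encodes pancreatic polypeptide, the hormone that defines PP cells, and Pyy encodes peptide YY, a related peptide that endocrine cells of several types make in the fetal and newborn rodent islet. Both peptides are cut from precursors, as somatostatin is, and act on Y receptors coupled to inhibitory G proteins.

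The data are RNA sequencing of islet cells from Sprague Dawley rats at 10 days of age, an age before weaning when islet cells are still immature. Islets were dispersed and the cells were transfected in culture with locked nucleic acid (LNA) oligonucleotides, which bind a complementary RNA tightly. In 4 control libraries the cells received 60 pmol of a scrambled control LNA, and in 4 inhibitor libraries they received 3 LNA inhibitors at 20 pmol each, 60 pmol in total. The inhibitors target tiRNA-5, the fragments that keep the 5′ end of a cut tRNA, here of the histidine tRNA GTG and the glutamate tRNAs CTC and TTC. Both groups thus share the strain, the age, the culture, the transfection and the amount of LNA. All cell types of the dispersed islets were sequenced together, the labels do not say whether libraries came from separate cultures or litters, and the fragments themselves were not measured in the values used here. The comparison asks whether mRNA levels differ once these fragments are inhibited.

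Values are RPKM, the reads per kilobase of gene scaled to library size. Between 16035607 and 19049788 reads fell in the listed genes of a library. The libraries had the make-up of islet cells: the summed level of 8 measured beta-cell markers was between 159009 and 255258 RPKM, and that of 10 alpha-cell markers between 6985 and 10825 RPKM. Mesenchymal markers summed to between 3026 and 6624 RPKM over 11 of 14 genes, and ductal markers to between 295 and 376 RPKM over 7 of 12. Acinar markers (3 of 15 measured) did not exceed 37.4 RPKM, endothelial markers (4 of 12) 13.3 RPKM, immune markers (2 of 9) 7.46 RPKM, and the glial marker Ngfr (1 of 6) 2.96 RPKM. Hepatocyte markers (3 of 10) summed to between 86.6 and 181 RPKM, mostly from Serpina1, which islet cells also express. The other genes of these lists, such as Prss1, Ptprc and Alb, were not analysed here. A pair of libraries stood apart. Control 1 had the lowest mesenchymal sum (3026 RPKM) and the lowest alpha-cell sum (6985 RPKM), and inhibitor 4 had the lowest beta-cell sum (159009 RPKM), the highest alpha-cell sum (10825 RPKM) and a level of the Y-linked gene Eif2s3y of 0.257 RPKM, against 6.86 to 18.8 RPKM in the other 7 libraries. Log2 fold changes and ratios that moved without these libraries are therefore also given without them.

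The promoters of 4 of the genes show how different the control regions of the hormones and of the factor are. They run from 250 bases before to 50 bases after the annotated start of the gene, 5′ to 3′ on the strand of the gene, and come from RefSeq on build GRCr8, which is not the rn6 build named for these data. In Sst (chr11:90461296-90461595, plus strand) capitals mark the palindrome TGACGTCA, the cAMP response element first described in this gene, and the homeodomain core TAATTA. In Hhex (chr1:244602695-244602994, plus strand) capitals mark GGGCGG, the GC box. In Ppy (chr10:87556187-87556486, minus strand) and Pyy (chr10:87562421-87562720, minus strand) capitals mark TATAA, the TATA box.
Sst: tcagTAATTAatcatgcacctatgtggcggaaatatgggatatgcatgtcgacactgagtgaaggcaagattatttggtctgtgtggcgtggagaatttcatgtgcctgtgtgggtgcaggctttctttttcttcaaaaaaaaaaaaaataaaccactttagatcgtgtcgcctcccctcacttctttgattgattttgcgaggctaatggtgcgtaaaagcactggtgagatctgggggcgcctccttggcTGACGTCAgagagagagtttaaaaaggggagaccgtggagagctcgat
Hhex: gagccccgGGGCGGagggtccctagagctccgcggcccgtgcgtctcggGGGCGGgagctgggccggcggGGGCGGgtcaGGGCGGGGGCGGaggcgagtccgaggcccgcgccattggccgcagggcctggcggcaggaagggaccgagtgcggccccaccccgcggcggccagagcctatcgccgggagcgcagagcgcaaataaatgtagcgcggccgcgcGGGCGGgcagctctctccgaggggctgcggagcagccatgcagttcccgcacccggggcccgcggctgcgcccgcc
Ppy: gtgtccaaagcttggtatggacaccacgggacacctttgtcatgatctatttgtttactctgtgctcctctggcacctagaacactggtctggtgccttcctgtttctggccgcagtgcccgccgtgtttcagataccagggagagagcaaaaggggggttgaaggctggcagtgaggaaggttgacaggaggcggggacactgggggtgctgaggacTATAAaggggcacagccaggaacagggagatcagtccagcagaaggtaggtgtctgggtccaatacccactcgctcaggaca
Pyy: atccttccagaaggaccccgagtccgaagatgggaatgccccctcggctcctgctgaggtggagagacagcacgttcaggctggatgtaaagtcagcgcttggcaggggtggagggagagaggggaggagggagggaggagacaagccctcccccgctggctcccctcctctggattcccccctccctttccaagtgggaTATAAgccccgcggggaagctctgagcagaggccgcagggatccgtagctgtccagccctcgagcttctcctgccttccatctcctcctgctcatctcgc

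TGACGTCA was present in the window of Sst alone among the 5 genes, at bases 3 to 10 of the annotated gene, and 1.83% of 33469 windows of the same length hold it on either strand. The shorter element TGACG, which lies within it, was also found in Rbp4 and is held by 21.2% of windows. TAATTA was found in Sst alone and is held by 5.36% of windows, GGGCGG was found in Hhex and Rbp4 and is held by 33.1%, and TATAA was found in Ppy, Pyy and Rbp4 and is held by 26.2%. The window of Hhex was 79.0% G and C, that of Sst 45.7%, that of Ppy 56.0% and that of Pyy 63.3%, against a median of 51.7% over all windows. In the reference gene order Ppy and Pyy are direct neighbours on chromosome 10 with 0 protein-coding genes between them, and Hhex and Rbp4 lie on chromosome 1 with 7 between them. A match of letters in a window is a description and does not show that a factor binds there. Positions count from the annotated start of each gene, which was not checked against a measured start of transcription.

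The 5 genes covered a wide range of levels, and all lay below the insulin and glucagon genes. Averaged over the 8 libraries, Sst ranked 24 of 10692 rows by RPKM, Pyy 205, Ppy 473, Rbp4 4105 and Hhex 8784. Sst was above Pyy in every library, with a ratio of mean levels of 4.21. Pyy was above Ppy within each of the 8 libraries, but their ranges over libraries overlapped, since the lowest Pyy level (95.8 RPKM, inhibitor 3) was below the highest Ppy level (116 RPKM, control 3). Ppy was above Rbp4 and Rbp4 above Hhex in every library, with ratios of mean levels of 6.18 and 4.13. Of the summed RPKM of Ins1, Ins2, Gcg, Sst, Ppy and Pyy, Sst made up 0.347% ± 0.0739 in control and 0.261% ± 0.0225 in inhibitor libraries, Pyy 0.0756% ± 0.0217 and 0.0732% ± 0.0212, and Ppy 0.0409% ± 0.00499 and 0.0407% ± 0.00578 (SD, n = 4). Gcg, which encodes glucagon, made up 3.49% ± 0.672 and 4.05% ± 1.39 of the same sum (SD, n = 4), and the rest was insulin.

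Over the comparison as a whole, none of the 5 genes passed the threshold. With limma on log2(RPKM + 1) and an adjusted p under 0.05, 0 of the 5 genes were called, as were 0% of the 10688 genes tested in either direction. At an unadjusted p under 0.05 limma had 1 of the 5, Sst, lower in inhibitor cells, and 3.46% of all genes were lower and 5.52% higher by that rule. All 5 had a negative log2 fold change, with a median of -0.14, where 45.7% of all genes were negative, 54.3% were positive and the median over all genes was 0.015. The groups overlapped for each of the 5, while they did not overlap for 1.61% of all genes in the lower and 3.7% in the higher direction.

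**Figure D1:**
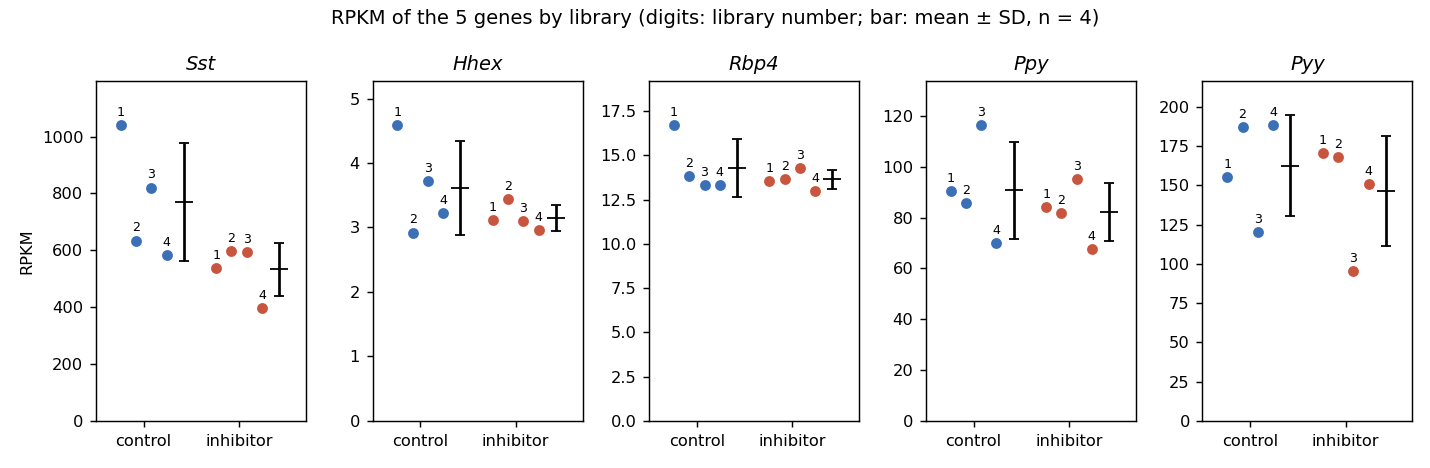
RPKM of Sst, Hhex, Rbp4, Ppy and Pyy (vertical axes, each from 0) in the 4 control and 4 inhibitor libraries; each point is a library with its number, and the black bar is the mean ± SD. Control 1 is highest for Sst, Hhex and Rbp4, and library 3 of each group is highest for Ppy and lowest for Pyy.

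Somatostatin mRNA showed the largest difference of the 5, and it did not pass the test over all genes. Sst stood at 1039, 634, 821 and 583 RPKM in control libraries 1 to 4 and at 538, 599, 596 and 397 RPKM in inhibitor libraries 1 to 4. Control 1 and control 3 were the highest, inhibitor 4 was the lowest, and 2 of the 4 inhibitor libraries lay below the lowest control library. Control libraries averaged 769 ± 207 RPKM and inhibitor libraries 533 ± 94.4 RPKM (SD, n = 4), which is a ratio of 0.692. The log2 fold change was -0.51 ± 0.20 (SE), with a 95% confidence interval from -0.95 to -0.072 (limma adjusted p = 0.541), and the exact permutation test of the same log2 values gave p = 0.0857, two-sided. In the authors' deposited table Sst had an adjusted p of 0.378.

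The difference in Sst level was large against most genes and was smaller without control 1 and inhibitor 4. Of all genes tested, 0.309% had a log2 fold change as low as that of Sst or lower. The log2(RPKM + 1) scale understates changes of low genes, which can make this share smaller. Among the 394 genes at 100 RPKM or more in control cells, 2 had so low a log2 fold change, Sst itself and Eln, which encodes elastin. This bound was chosen after the values were seen. Control 1 was the highest control library for Sst, and inhibitor 4 was the lowest inhibitor library. Leaving either out therefore had to make the difference smaller. Without control 1 the log2 fold change of Sst was -0.35 (limma adjusted p = 0.432), without inhibitor 4 it was -0.38 (limma adjusted p = 0.643), and without both it was -0.22 (limma adjusted p = 0.424). Between 6262 and 14839 reads per library fell in Sst, so counting alone gives a coefficient of variation of at most 1.26%, against 26.9% among control and 17.7% among inhibitor libraries. In libraries of mixed cells, fewer delta cells and less somatostatin mRNA per delta cell cannot be told apart.

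Ratios within a library do not depend on how libraries are scaled, and those of Sst to insulin, Gcg and Ppy had lower means in inhibitor cells, although none passed the test once adjusted over the 6 ratios. Against the summed insulin mRNAs of the rat, Ins1 and Ins2, Sst stood at 0.470%, 0.329%, 0.343% and 0.302% in control libraries 1 to 4 and at 0.279%, 0.246%, 0.301% and 0.266% in inhibitor libraries 1 to 4. The groups did not overlap, although control 4 and inhibitor 3 nearly met. Against the same sum, 0.0561% of 10686 genes were lower without overlap, compared with 1.61% of 10688 by RPKM alone. The insulin mRNAs themselves varied, with Ins1 between 100678 RPKM (inhibitor 4) and 162858 RPKM (control 3). The part of this in the smaller share was not tested. The log2 difference of the ratio to insulin was -0.39 ± 0.15 (SE). The exact permutation p was 0.0286, two-sided, the smallest that 4 against 4 libraries allow (adjusted p = 0.0857 over the 6 ratios tested). Without control 1 the difference was -0.25, and without both control 1 and inhibitor 4 it was -0.24. The groups still did not overlap without both. The exact permutation p was then 0.1, the smallest that the remaining libraries allow (adjusted p = 0.3).

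Against Gcg, the glucagon mRNA of alpha cells, the picture was less even. Sst stood at 17.5% of the level of Gcg in control 1, at between 7.52% and 9.81% in the other control libraries, at between 7.61% and 8.15% in inhibitor 1, 2 and 3 and at 4.07% in inhibitor 4. Apart from control 1 and inhibitor 4, the ratios of the groups lay side by side, and the difference on the log2 scale was -0.58 ± 0.37 (SE; two-sided exact permutation p = 0.286, or 0.343 once adjusted over the 6 ratios). Without control 1 it was -0.30, without inhibitor 4 it was -0.34, and without both it was -0.065 (exact permutation p = 1). Control 1 had the lowest Gcg level (5932 RPKM) and inhibitor 4 the highest (9762 RPKM).

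Against Ppy, Sst was 11.5 times as high in control 1 and between 7.06 and 8.31 times as high in the other control libraries. In inhibitor libraries the ratio was between 5.88 and 7.33, so the groups overlapped narrowly. The difference on the log2 scale was -0.38 ± 0.17 (SE; two-sided exact permutation p = 0.0571, or 0.0857 once adjusted over the 6 ratios). Without control 1 it was -0.23, and without both control 1 and inhibitor 4 it was -0.19 (exact permutation p = 0.2, adjusted p = 0.3).

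**Figure D2:**
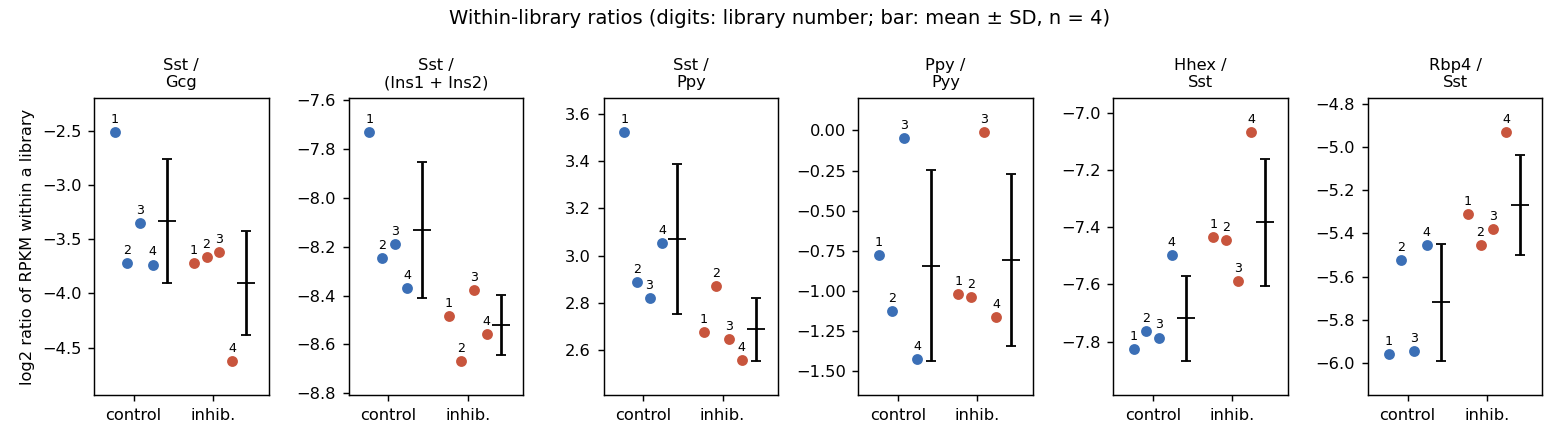
Log2 ratio of RPKM within each library (vertical axes) for the 6 pairs tested, with control libraries in blue and inhibitor libraries in red, library numbers beside the points and bars for the mean ± SD. Sst over the sum of Ins1 and Ins2 is lower in all 4 inhibitor libraries than in any control library, while Ppy over Pyy is near 0 in library 3 of each group and lower elsewhere.

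Hhex, the transcription factor, was a gene of low level. It stood at 4.58, 2.92, 3.72 and 3.22 RPKM in control libraries 1 to 4 and at 3.11, 3.44, 3.09 and 2.96 RPKM in inhibitor libraries 1 to 4. Control 1 was the highest and control 2 the lowest of all libraries, so the inhibitor values fell within the control range. The means were 3.61 ± 0.727 and 3.15 ± 0.204 RPKM (SD, n = 4). The log2 fold change was -0.14 ± 0.11 (SE), with a 95% confidence interval from -0.39 to 0.11 (limma adjusted p = 0.657; exact permutation p = 0.286, two-sided). Without control 1 and inhibitor 4 it was -0.021. Between 125 and 188 reads per library fell in Hhex. The spread among inhibitor libraries, a coefficient of variation of 6.48%, was below the 8.16% to 8.94% that counting alone gives in them.

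Rbp4, the retinol carrier, was the steadiest of the 5. It stood at 16.7, 13.8, 13.3 and 13.3 RPKM in control libraries 1 to 4 and at 13.6, 13.7, 14.3 and 13.0 RPKM in inhibitor libraries 1 to 4. Control 1 was above all other libraries, which lay close together. The log2 fold change was -0.057 ± 0.080 (SE), with a 95% confidence interval from -0.24 to 0.12 (limma adjusted p = 0.787; exact permutation p = 0.686, two-sided), without control 1 it was 0.015, and without control 1 and inhibitor 4 it was 0.036. The interval leaves out the point estimate of Sst over all 8 libraries, -0.51, but overlaps the interval of Sst, from -0.95 to -0.072. Without control 1 and inhibitor 4 the estimate of Sst was -0.22, which lies within the interval of Rbp4.

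Against Sst, Hhex and Rbp4 had higher mean ratios in inhibitor cells, and neither ratio passed the test once adjusted. Hhex stood at between 0.441% and 0.553% of the level of Sst in control and at between 0.519% and 0.745% in inhibitor libraries, which overlap. The log2 difference was 0.33 ± 0.13 (SE; two-sided exact permutation p = 0.0571, or 0.0857 once adjusted over the 6 ratios). Rbp4 stood at between 1.61% and 2.283% of the level of Sst in control and at between 2.285% and 3.28% in inhibitor libraries. Here the groups did not overlap, by a narrow gap between control 4 and inhibitor 2. The log2 difference was 0.45 ± 0.18 (SE; exact permutation p = 0.0286, two-sided, adjusted p = 0.0857). As 14.5% of 10687 genes were higher against Sst without overlap, this is not particular to Rbp4. Without control 1 and inhibitor 4 the log2 difference was 0.19 for Hhex and 0.26 for Rbp4. The exact permutation test gave an adjusted p of 0.3 for each. For Rbp4 the groups still did not overlap, and its unadjusted p of 0.1 was the smallest that the remaining libraries allow. Without inhibitor 4 alone that of Hhex was 0.23.

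Among the other delta-cell genes, 5 of 13 were measured, and they went both ways. Of these, 2 were higher and 3 lower in inhibitor cells, with 0 called and a median of -0.017. Ffar4, a receptor of long-chain fatty acids, was at 1.91 ± 0.187 against 1.59 ± 0.165 RPKM (SD, n = 4; limma adjusted p = 0.575). Unc5b, a netrin receptor, had a log2 fold change of -0.14 ± 0.23 (SE). Another 2 were named outside the rule: Casr, the calcium-sensing receptor, had a log2 fold change of -0.017, and Edn3, which encodes endothelin-3, of 0.15. Other genes of the list, such as Ghsr and Crhr2, were not analysed here.

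For pancreatic polypeptide and peptide YY mRNA, the groups overlapped and neither gene passed the test. Ppy stood at 90.5, 85.7, 116 and 70.1 RPKM in control libraries 1 to 4 and at 84.0, 81.8, 95.03 and 67.5 RPKM in inhibitor libraries 1 to 4. Library 3 was the highest and library 4 the lowest in each group. Ppy averaged 90.6 ± 19.1 RPKM against 82.1 ± 11.3 RPKM (SD, n = 4), and its log2 fold change was -0.13 ± 0.15 (SE) with a 95% confidence interval from -0.46 to 0.20 (limma adjusted p = 0.744; exact permutation p = 0.486, two-sided). Without control 3 the log2 fold change was -0.0027. Without inhibitor 4 it was -0.039, and without control 1 and inhibitor 4 it was -0.033.

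Pyy stood at 155, 187, 120.01 and 188 RPKM in control libraries 1 to 4 and at 171, 168, 95.8 and 151 RPKM in inhibitor libraries 1 to 4. Library 3 was the lowest in each group, the reverse of Ppy. Pyy averaged 163 ± 32.2 RPKM against 146 ± 34.9 RPKM (SD, n = 4), and its log2 fold change was -0.16 ± 0.20 (SE) with a 95% confidence interval from -0.61 to 0.28 (limma adjusted p = 0.758; exact permutation p = 0.514, two-sided). Without inhibitor 3 it was 0.027 and without control 3 it was -0.30.

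Ppy and Pyy, although neighbours in the genome, kept no fixed ratio. Ppy was at 96.9% of the level of Pyy in control 3 and at 99.2% in inhibitor 3, and at between 37.3% and 58.3% in the other 6 libraries. The log2 difference of the ratio between the groups was 0.034 ± 0.40 (SE; two-sided exact permutation p = 0.886, and 0.886 once adjusted over the 6 ratios), far within the spread of each group. The labels do not say that libraries with the same number share a culture. Both genes had ample reads, from 743 to 1312 per library for Ppy and from 1138 to 2541 for Pyy.

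Of the other PP-cell genes, 9 of 13 were measured, with 3 positive and 6 negative log2 fold changes, 0 called and a median of -0.11. Fxyd2, a regulator of the sodium pump, stood at 62.7, 22.6, 13.1 and 7.68 RPKM in control libraries 1 to 4 and at 2.21, 4.38, 5.07 and 9.95 RPKM in inhibitor libraries 1 to 4. Control 1 was far above the rest, and control 4 lay below inhibitor 4. Its log2 fold change was -1.83 ± 0.56 (SE; limma adjusted p = 0.541). Tm4sf4, a membrane protein of the tetraspanin-like family, was at 47.9 ± 1.67 against 53.5 ± 6.96 RPKM (SD, n = 4; limma adjusted p = 0.591).

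**Figure D3:**
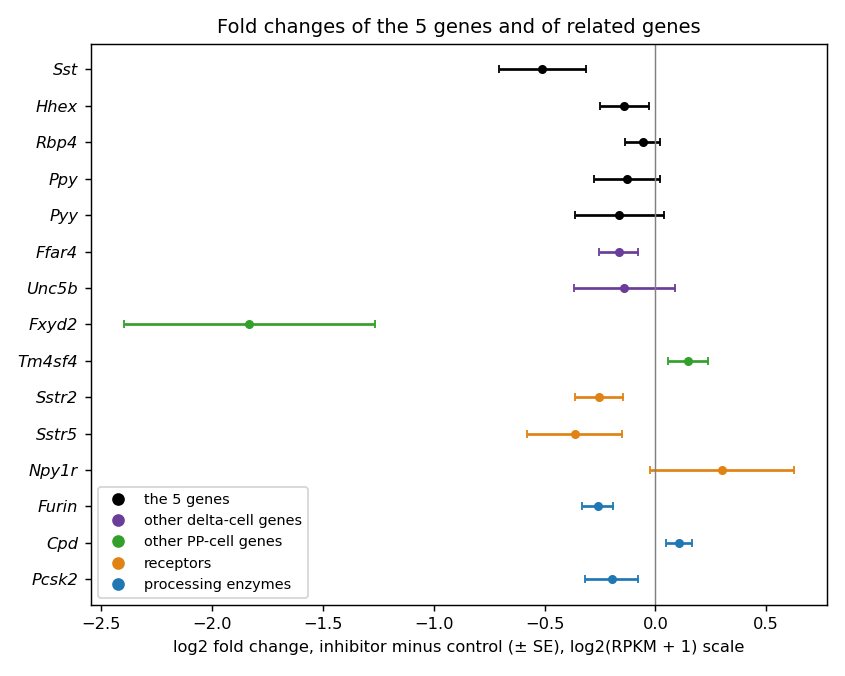
Log2 fold changes of inhibitor minus control (horizontal axis, log2(RPKM + 1) scale, bars are SE) for the 5 genes and for genes with the smallest p of each of 4 related lists. Sst lies lowest of the 5 at -0.51 and Fxyd2 lies at -1.83 with a wide error.

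Between libraries, the 3 delta-cell genes had positive correlations over all 8 libraries, and those of Rbp4 were lost when 2 libraries were left out. Over the 8 libraries Sst and Hhex had a Pearson r of 0.86 (exact permutation p = 0.00459, adjusted p = 0.0459 over 10 pairs) and a Spearman rho of 0.57 (exact permutation p = 0.151, adjusted p = 0.378). Without control 1 and inhibitor 4, the libraries farthest from the median of Sst, r was 0.68 over 6 libraries (exact permutation p = 0.149). Without control 1 alone r was 0.70 with a rho of 0.36 (exact permutation p of r = 0.0919), and without inhibitor 4 alone r was 0.91 (exact permutation p = 0.0159), so the call rested on control 1. Within control libraries r was 0.94 and within inhibitor libraries 0.72 (n = 4 each). For Sst and Rbp4 r was 0.75 (exact permutation p = 0.0417, adjusted p = 0.188) with a rho of 0.64 (exact permutation p = 0.0962, adjusted p = 0.378), and without the same 2 libraries r was -0.29, so that relation rested on them. For Hhex and Rbp4 r was 0.77 (exact permutation p = 0.0753, adjusted p = 0.188) with a rho of 0.19 (exact permutation p = 0.665, adjusted p = 0.752), and without control 1 and control 3 r was 0.084. Control 1, highest for all 3 genes, was also the library with the lowest mesenchymal sum, and the part of this in the relation was not tested.

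Ppy had a positive correlation with Sst and a negative one with its neighbour Pyy, and neither passed the test over the 10 pairs. For Sst and Ppy r was 0.68 (exact permutation p = 0.0647, adjusted p = 0.188) with a rho of 0.71 (exact permutation p = 0.0576, adjusted p = 0.378), and without control 1 and inhibitor 4 r was 0.79. For Ppy and Pyy r was -0.60 (exact permutation p = 0.125, adjusted p = 0.249) with a rho of -0.52 (exact permutation p = 0.197, adjusted p = 0.393). Without control 3 and inhibitor 4, the libraries farthest from the median of Ppy, r was -0.70. For Sst and Pyy r was -0.13 (exact permutation p = 0.745, adjusted p = 0.833). The pairs not named here and in the paragraph above had adjusted p-values of r between 0.480 and 0.833.

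**Figure D4:**
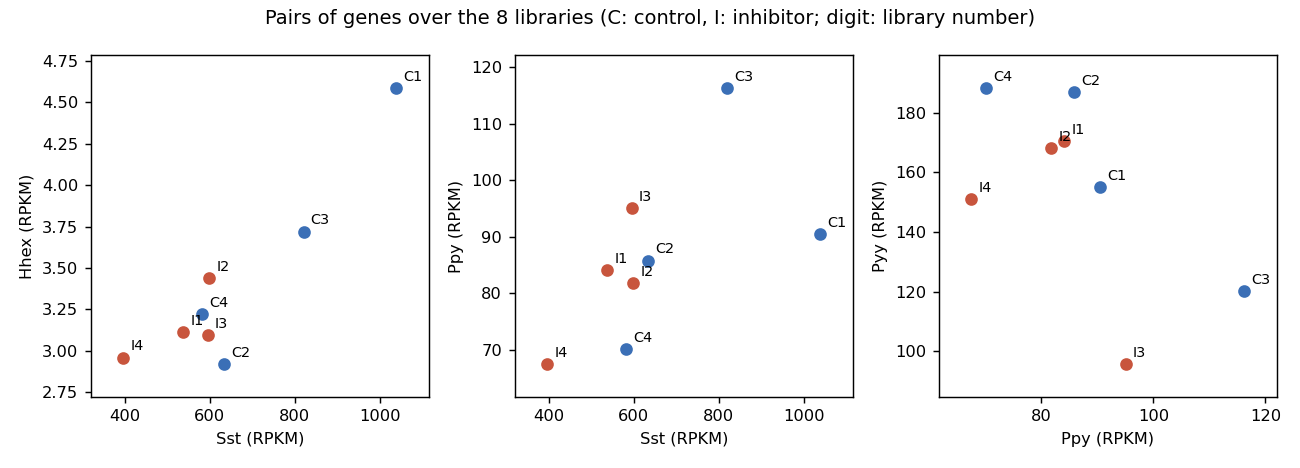
RPKM of Hhex and Ppy against Sst, and of Pyy against Ppy, in each library (blue, control; red, inhibitor; labelled C or I with the library number). Hhex increases with Sst with control 1 at the far end, and control 3 and inhibitor 3 lie at high Ppy and low Pyy.

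The genes of the whole table whose pattern over the 8 libraries was most like each of the 5 were found by Pearson r, given as a description. For Sst these were Ptprn2, a granule membrane protein of endocrine cells, at an r of 0.99, then Fxyd6 and Lrrc73, each at an r of 0.97. Ptprn2 stood between 95.9 and 152 RPKM, with control 1 highest and inhibitor 4 lowest as for Sst. Hhex ranked 119 by its r with Sst and Rbp4 ranked 443. For Ppy the most similar were Iapp, the amylin gene of beta cells, at an r of 0.97, Pam, the enzyme that amidates peptide hormones, at 0.97, and Rnd1 at 0.95. For Pyy the one named here was RGD1312005 at 0.96, and Ppy ranked 10520. For Hhex they were Tmem8a at 0.97, Cyp27b1 at 0.96 and Spint2 at 0.95. For Rbp4 they were a row that bears a number in place of a symbol, Alkbh5 and Pomt2, each at 0.97.

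Some further genes of the delta-cell and PP-cell lists, chosen after their values were seen, differed in which hormone they resembled. Casr had an r of 0.87 with Ppy and 0.69 with Sst. Unc5b, from the delta-cell list, had an r of -0.50 with Sst and -0.78 with Hhex. For Ffar4, from the same list, these were 0.16 and -0.012. Edn3 had an r of 0.85 with Pyy and -0.80 with Ppy, and its level in library 3 was 7.29 RPKM (control) and 6.97 RPKM (inhibitor), against 8.64 to 14.9 RPKM elsewhere. Etv1, a transcription factor on the PP-cell list, had an r of -0.13 with Ppy and -0.76 with Hhex. These values are descriptions over 8 libraries.

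Receptors that somatostatin and the PP-family peptides act on had 0 called of 4 measured of 9, with 1 positive and 3 negative and a median of -0.17. Sstr2 was at 6.88 ± 1.20 and 5.56 ± 0.398 RPKM (limma adjusted p = 0.543) and Sstr5 at 3.91 ± 1.05 and 2.85 ± 0.965 RPKM (limma adjusted p = 0.587) (SD, n = 4). Npy1r, a Y receptor, was at 2.56 ± 1.29 against 3.41 ± 1.96 RPKM (SD, n = 4; limma adjusted p = 0.733). The inhibitory G proteins, their potassium channels and adenylate cyclases had 4 positive and 5 negative of 9 measured, 0 called and a median of -0.0047, with Kcnj5 at a log2 fold change of 0.12, Gnao1 at 0.067 and Gnaz at -0.12.

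Enzymes that process the precursors had 2 positive and 9 negative log2 fold changes of 11 measured of 13, with 0 called and a median of -0.050. Furin, a convertase of the Golgi, stood at 51.4, 54.5, 48.6 and 49.3 RPKM in control libraries 1 to 4 and at 38.2, 41.9, 44.9 and 44.6 RPKM in inhibitor libraries 1 to 4. Every inhibitor library was below every control library, which was so for 1.61% of all genes. The log2 fold change of Furin was -0.26 ± 0.069 (SE; limma adjusted p = 0.541). Pcsk2, a convertase of secretory granules, was at 497 ± 66.3 against 432 ± 47.9 RPKM (SD, n = 4; limma adjusted p = 0.587), and Cpd, a carboxypeptidase, at 24.7 ± 1.34 against 26.6 ± 0.633 RPKM (SD, n = 4; limma adjusted p = 0.575).

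Factors known to act on the Sst promoter had 4 positive and 8 negative of 12 measured of 13, with 0 called and a median of -0.081. Crtc1, a coactivator of CREB, had a log2 fold change of -0.16 (limma adjusted p = 0.594), Crebbp of -0.15 (limma adjusted p = 0.601) and Pax6 of 0.14 (limma adjusted p = 0.605). Transcription factors of islet endocrine cells other than Hhex had 7 positive and 8 negative of 15 measured of 18, with 0 called and a median of -0.050. Neurod1 was at 72.8 ± 5.31 against 92.2 ± 17.8 RPKM (SD, n = 4; limma adjusted p = 0.541).

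Inputs to delta cells had 6 positive and 4 negative of 10 measured of 14, with 0 called and a median of 0.033. Chrm3, a muscarinic receptor, was at 2.48 ± 0.223 against 1.93 ± 0.212 RPKM (SD, n = 4; limma adjusted p = 0.541). Its groups did not overlap, and 1.61% of all genes were lower in inhibitor cells without overlap. Ucn3, the beta-cell peptide that drives somatostatin release, was at 341 ± 44.4 against 391 ± 66.1 RPKM (SD, n = 4; limma adjusted p = 0.641), and Gabbr2, of the GABA-B receptor, had a log2 fold change of 0.18 (limma adjusted p = 0.568). Retinoid genes, which work with the cargo of Rbp4, had 4 positive and 8 negative of 12 measured of 21, with 0 called and a median of -0.078. Ttr, the partner of Rbp4 in plasma, was at 3.97 ± 2.00 and 2.11 ± 0.442 RPKM (limma adjusted p = 0.550), Aldh1a1, which makes retinoic acid, at 1.63 ± 0.0761 and 2.26 ± 0.659 RPKM (limma adjusted p = 0.555), and Rxra had a log2 fold change of -0.18 (limma adjusted p = 0.569) (SD, n = 4).

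The other peptide hormones and granins had 2 positive and 10 negative of 12 measured of 15, with 0 called and a median of -0.10, so Sst was not alone among hormone genes in having a negative value. Gal, which encodes galanin, was at 4.64 ± 0.914 against 3.21 ± 0.387 RPKM, and Cartpt, a neuropeptide precursor found in delta cells of the rat, at 63.2 ± 10.9 against 49.7 ± 5.21 RPKM (SD, n = 4), and limma gave an adjusted p of 0.541 for each. Chga, a granin, was at 440.0 ± 52.8 against 366 ± 53.5 RPKM (SD, n = 4; limma adjusted p = 0.554). Beta-cell markers had 4 positive and 4 negative of 8 measured with a median of 0.0081, alpha-cell markers 3 and 7 of 10 with a median of -0.14, mesenchymal markers 3 and 8 of 11 with a median of -0.073 and ductal markers 3 and 4 of 7 with a median of -0.0070. All 3 acinar markers, all 4 endothelial markers and the 1 glial marker measured were negative, with medians of -0.33, -0.23 and -0.37. Hepatocyte markers had 1 positive and 2 negative and immune markers 1 of each, with medians of -0.12 and 0.031. In none of these marker lists was a gene called by limma, where 0% of all genes were.

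**Figure D5:**
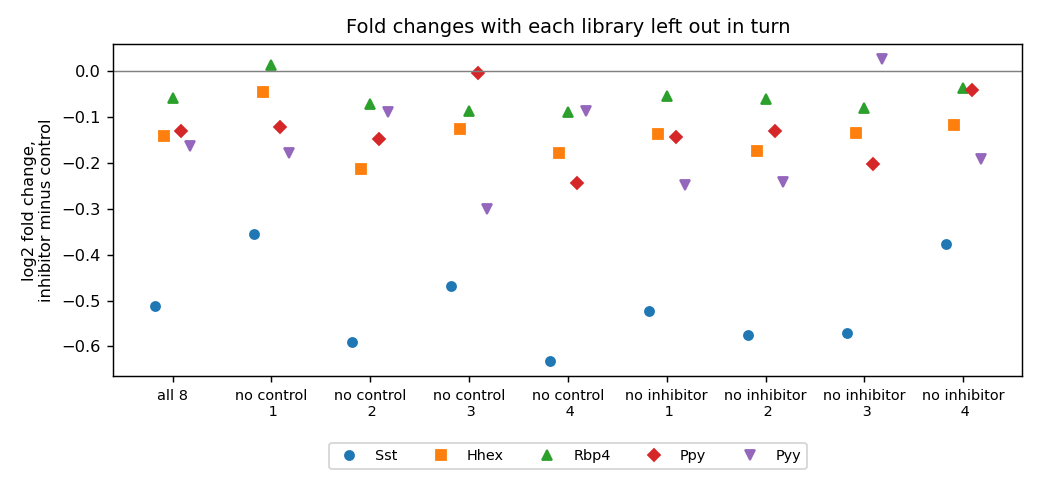
Log2 fold change of each of the 5 genes (vertical axis, inhibitor minus control) with all 8 libraries and with each library left out in turn (horizontal axis). Sst stays between -0.63 and -0.35, whereas Rbp4 crosses 0 without control 1 and Pyy without inhibitor 3.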

How the data were processed

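The authors deposited RPKM per gene for each of the 8 libraries, per the file headers. HTSeq, HISAT2 2.1.0, RSEM 1.3.0, STAR 2.5.3a and build rn6 appear in the submitters' processing notes, while the role of each tool, the annotation and the strand handling are not given in the sources used here. Every row had a mean of at least 1 RPKM in both groups. The deposited log2 fold change, fold (ratio), p-value and adjusted p-value columns were made by the authors, and the sources used here do not give their test.

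Rows that reached 1 RPKM in at least 4 libraries (10688, with 4 left out) were fitted as log2(RPKM + 1) by limma 3.58.1 (R 4.3.3), with group alone, an intensity trend, and Benjamini-Hochberg adjustment at 0.05. The scale understates changes of low genes. All 5 genes passed the filter. P-values measure only the spread between these libraries, which may be technical. Ratios and correlations were tested by exact permutation in Python 3.11.15, with differences judged by their absolute size. Whole reads were recovered from the proportions of the RPKM values for 10692 of 10692 rows (tolerance 0.0001), and served for depth and 1 alternative. Recovery took the smallest whole numbers that fit, so true reads may be a multiple of them. The limma fit and the read recovery were also run on simulated data, with the same set spread for all genes in the former. The outcomes are not reported here, so these runs lend no weight to the values. Counting errors cover reads only. Symbols of all 5 genes matched the RefSeq table (GRCr8). Per list of related genes, the 3 with the smallest p were named, and per gene the 3 most similar rows. Some genes that meet this rule are not reported here. The members and lists were chosen with earlier results of these data known. Alternatives were other pseudocounts, filters, scalings, library weights, limma-voom, a replicate block and libraries left out.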

Additional observations from a re-analysis of the deposited data

Results flagged for a closer look

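A single library lay far from the other 3 of its group in 3 of the 22 groups of values checked (the 5 genes and the 6 ratios, each in 2 groups of 4), where chance gives about 1 in 20. For Rbp4 this was control 1, whose gap to the next library was 0.85 of the range of the control libraries (16.7 RPKM against 13.3 to 13.8 RPKM). For Sst over Gcg it was inhibitor 4, the lowest, with a gap of 0.901 of the range (4.07% against 7.61% to 8.15%). For Ppy over Pyy it was inhibitor 3, the highest, with a gap of 0.878 of the range (99.2% against 44.7% to 49.2%). The cause was not tested.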

How the results depend on the processing

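The number of genes called by limma was 0 under every setting tried, and the number at an unadjusted p under 0.05 was 960 with all libraries, 2814 with library weights, 1699 without control 1 and inhibitor 4, 494 without control 2, 422 without inhibitor 1, and between 749 and 1273 otherwise. Leaving out each library in turn gave a log2 fold change of between -0.63 and -0.35 for Sst, -0.21 and -0.044 for Hhex, -0.087 and 0.015 for Rbp4, -0.24 and -0.0027 for Ppy and -0.30 and 0.027 for Pyy. Without both control 1 and inhibitor 4 that of Rbp4 was 0.036. The log2 difference of Ppy over Pyy was between -0.23 and 0.30 with a library left out. With library weights the log2 fold change of Sst was -0.32 (limma adjusted p = 0.183), with the lowest adjusted p of its alternatives, which ranged to 0.8998. The other settings reversed none of the 5 genes, and Hhex could not be fitted with a mean of at least 5 RPKM. With the 2 libraries farthest from the median left out, r was 0.68 for Sst and Hhex, -0.29 for Sst and Rbp4, 0.084 for Hhex and Rbp4, 0.097 for Hhex and Pyy and 0.44 for Rbp4 and Pyy, and the cause was not tested. The deviations of same-numbered libraries 1 to 4 had correlations of 0.138, -0.273, 0.319 and 0.454. For numbers 3 and 4 the same-numbered library was the best match in both directions, and for 1 and 2 it was not. As the correlations were not all over 0.1, the bound used here, the main test did not pair libraries by number. Whether some numbers mark pairs is not settled by this. With a replicate block limma called 0 genes, and Sst had a log2 fold change of -0.51 (adjusted p = 0.464). Its SE was 0.14 with the block and 0.20 without it. The block lowered the SE from 0.15 to 0.065 for Ppy (adjusted p = 0.496) and from 0.20 to 0.092 for Pyy (adjusted p = 0.513), with no call altered.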

Other observations

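Measured against the sum of Ins1 and Ins2 in the same library, 6 genes were lower in every inhibitor library than in any control library. Besides Sst these were Pagr1, Lrrc73, Rell2, Macrod1 and Tysnd1, with mean levels in control cells between 3.42 and 8.42 RPKM, far below that of Sst. Lrrc73 was also among the rows most like Sst and averaged 7.31 RPKM in control against 4.52 RPKM in inhibitor libraries. These genes were chosen after their values were seen.

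Ghrl, which encodes ghrelin, the hormone of epsilon cells whose receptor is found on delta cells in the mouse, stood at 8.33, 20.6, 19.4 and 24.6 RPKM in control libraries 1 to 4 and at 14.8, 17.3, 14.7 and 19.4 RPKM in inhibitor libraries 1 to 4. Control 1, the library with the highest Sst level, had the lowest Ghrl level, and the groups overlapped.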
